A study of Homo sapiens with 12 samples.

Results

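The nuclear genes that encode the subunits of the respiratory chain and of ATP synthase were followed in PE/CA-PJ41, a human oral squamous cell carcinoma line, with and without human plasma products. Members were taken by gene name alone, as the rows whose symbols are those of the nuclear subunits of complexes I to V, and 79 of the 20375 listed genes met this rule. They divide into 36 genes of complex I, 4 of complex II, 9 of complex III, 12 of complex IV and 18 of complex V, with NDUFA4 placed in complex IV because that is where its protein sits, despite its name. Messenger RNA was sequenced in 12 libraries, with 4 per group: untreated cells (control), cells with human plasma at 10% for 48 h, and cells with platelet-rich plasma (PRP) at 10% for 48 h. The labels give no culture time for control, so time and treatment cannot be told apart in comparisons with it, and they name no donor of the plasma or PRP. All libraries come from 1 cell line, and the labels do not say whether its replicates were grown as separate cultures. The p-values therefore rest on the spread from library to library alone, and that spread could be technical.

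The respiratory chain sits in the inner mitochondrial membrane. Complexes I and II pass electrons from NADH and succinate to ubiquinone, complex III passes them to cytochrome c, and complex IV to oxygen. Complexes I, III and IV pump protons as they do so, and complex V (ATP synthase) uses the proton gradient to make ATP. Complexes I, III, IV and V are built from proteins of both genomes, so subunits made in the cytosol must meet partners made inside the mitochondrion, while complex II is wholly nuclear. Many of the nuclear genes are known targets of the transcription factors NRF1, GABPA (an ETS factor also called NRF2) and YY1.

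Most members were higher in treated cells than in control. Levels are given as TPM, a share of each library's transcripts corrected for transcript length. A change is a difference on the log2(TPM + 1) scale, and a gene is called when its limma p, adjusted by Benjamini-Hochberg over the 12517 genes that passed a filter of at least 1 TPM in at least 4 libraries, is under 0.05. Of the 79 members 78 passed that filter. With plasma 59 of the 78 were called higher, where 20.3% of all genes tested were called higher, and 4 were called lower, against 29% of all genes. With PRP 56 were called higher, against 21.7% of all genes, and 4 lower, against 31.5%. Calls in either direction made up 49.3% and 53.1% of all genes tested. The median change over the members was 0.21 in both comparisons, with medians of -0.05 (plasma) and -0.06 (PRP) over all genes tested. The 4 plasma libraries all lay above the 4 control libraries for 54 members (18.2% of all genes tested did so) and all below them for 3 (25.7%). With PRP the same held for 53 members above (19%) and 4 below (27.8%). In bulk RNA, more transcript per cell and a larger share of cells that carry the transcript cannot be told apart.

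Both treatments are compared with the same 4 control libraries, so the 2 sets of calls share their control values and one is no check on the other. Set side by side, 55 members were called higher in both comparisons, 4 lower in both, 4 higher with plasma only (NDUFA10, SDHC, UQCR11 and COX5A), 1 higher with PRP only (ATP5MK) and 14 in neither. None was called in opposite directions. When estimated reads were tested in place of TPM, SDHC, UQCR11 and COX5A were called higher with PRP as well. A call in one comparison only does not show that the treatments differ, which was tested directly and is reported further on.

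The changes were modest in size. Across members they ran from -0.22 (NDUFA6) to 0.77 (NDUFC2) with plasma and from -0.29 (NDUFA6) to 0.85 (NDUFA1) with PRP. The summed level of all 79 members was 18328, 17264, 17609 and 17710 TPM in control replicates 1 to 4. It was 20020, 20347, 20384 and 20300 TPM in the plasma libraries and 20594, 20312, 20788 and 20864 TPM in the PRP libraries. All 8 treated libraries therefore lay above the highest control library, and the summed share of all transcripts averaged 1.77% ± 0.0443 (SD, n = 4) for control, 2.03% ± 0.0166 for plasma and 2.06% ± 0.0246 for PRP. The sums were 1.14 and 1.16 times those of control.

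**Figure D1:**
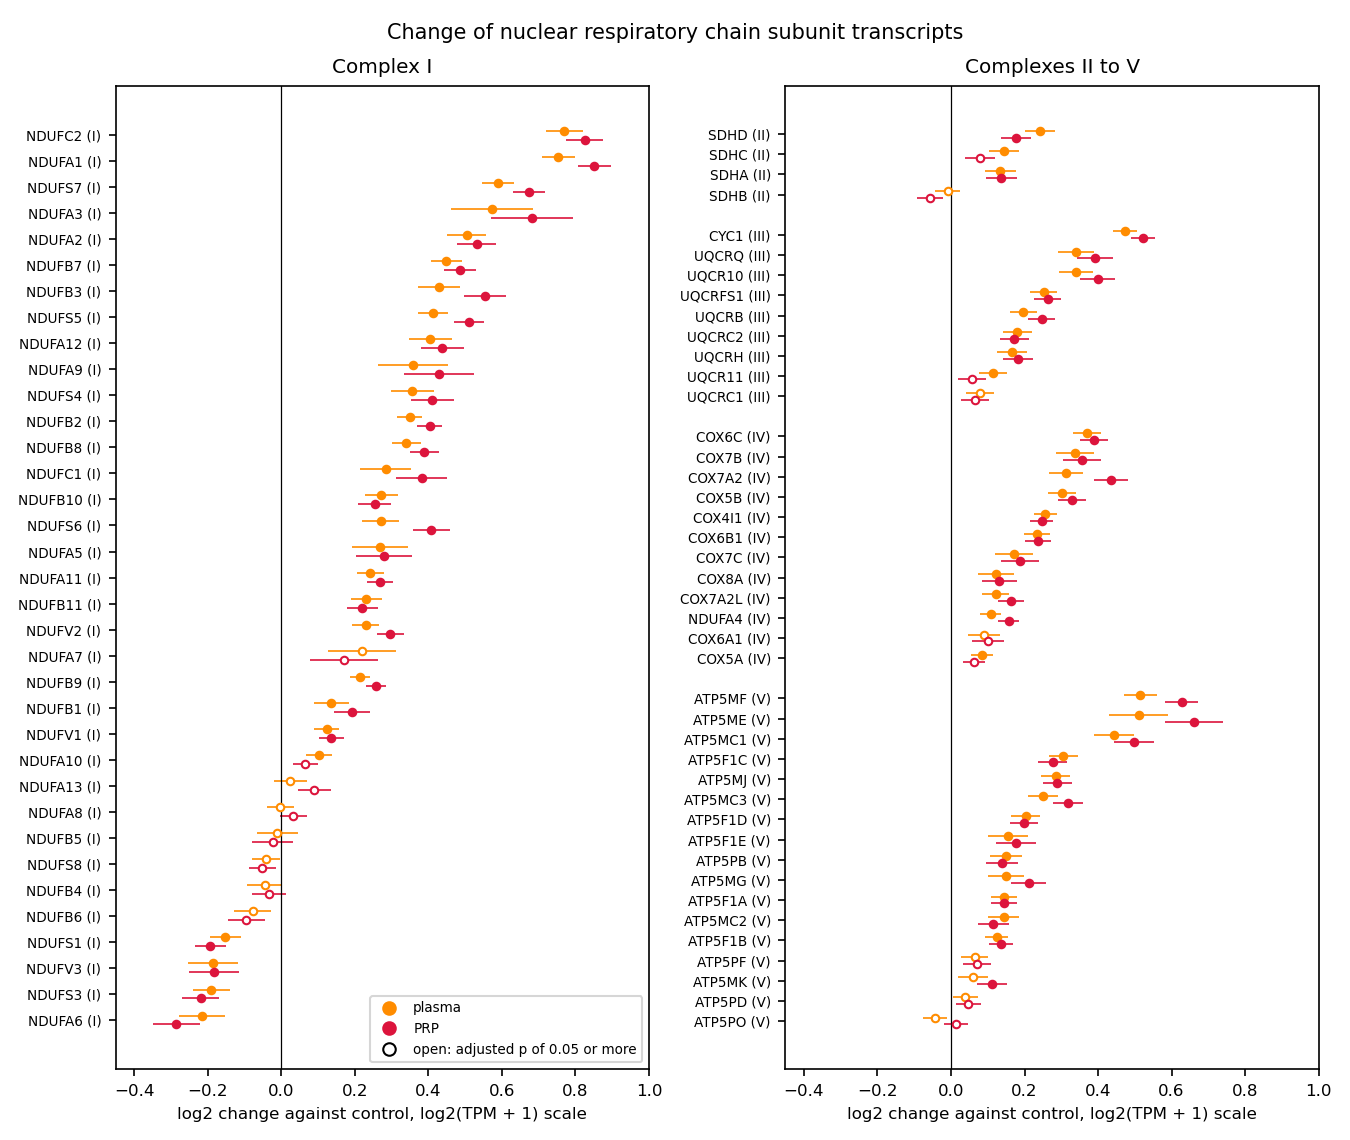
Log2 change against control of members, on the log2(TPM + 1) scale, with plasma (orange) and PRP (red). Bars are the standard error of the limma fit, filled points have an adjusted p under 0.05 and open points do not. Complex I is on the left and holds all 4 members called lower, and the complex of each gene is in brackets.

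The promoters of members that moved in both directions show which known sequence motifs they hold. RefSeq promoters (GRCh38.p14, 250 bases before to 50 after the start assigned to each promoter) matched 64 of the 79 members by symbol. That start is not always the outer end of the gene, and for COX7A2L it lies inside the listed gene. They were searched on both strands for the NRF1 motif (GCGCA, any base, then GCGC), the ETS motif CCGGAAG and the YY1 motif AAGATGGC. The NRF1 motif was found in 16 member promoters (25%), against 6.28% of the 27305 promoters of the table and 11.7% of the 10102 that belong to genes tested here. The ETS motif was found in 20 (31.2%), against 10.7% and 19.6%, and the YY1 motif in 11 (17.2%), against 3.03% and 5.44%. At least 1 of the 3 was found in 38 member promoters (59.4%), against 17.9% and 32.2%. The background of tested genes was added after the first values were seen.

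Promoters with a motif occurred among members of either direction. Among the 44 matched members called higher in both comparisons, 11 held the NRF1 motif, 11 the ETS motif and 5 the YY1 motif. Among the 4 called lower in both, 0 held the NRF1 motif, 2 the ETS motif and 1 the YY1 motif. Among the other 16 the counts were 5, 7 and 5. A motif match is a description of the sequence, not evidence of binding.

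The 200 bases before the start are printed for 6 members with a motif in that stretch, 4 that rose and 2 that fell, so that the same letters can be seen in both kinds. NDUFA1 (chrX:119871632-119871831, plus strand), SDHA (chr5:218120-218319, plus strand), SDHD (chr11:112086673-112086872, plus strand) and UQCRFS1 (chr19:29213152-29213351, minus strand) rose in both comparisons. NDUFS1 (chr2:206159445-206159644, minus strand) and NDUFS3 (chr11:47578874-47579073, plus strand) fell in both. Sequences run 5′ to 3′ on the strand of the gene and capitals mark the motifs, where CTTCCGG is the ETS motif read on the other strand.
NDUFA1: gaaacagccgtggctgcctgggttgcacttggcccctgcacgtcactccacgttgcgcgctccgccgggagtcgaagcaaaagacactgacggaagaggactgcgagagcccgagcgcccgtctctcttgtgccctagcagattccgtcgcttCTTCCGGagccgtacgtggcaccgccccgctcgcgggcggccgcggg
NDUFS1: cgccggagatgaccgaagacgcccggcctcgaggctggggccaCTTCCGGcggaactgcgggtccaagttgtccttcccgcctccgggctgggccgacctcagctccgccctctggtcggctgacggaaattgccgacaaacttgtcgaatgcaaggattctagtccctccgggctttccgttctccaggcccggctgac
NDUFS3: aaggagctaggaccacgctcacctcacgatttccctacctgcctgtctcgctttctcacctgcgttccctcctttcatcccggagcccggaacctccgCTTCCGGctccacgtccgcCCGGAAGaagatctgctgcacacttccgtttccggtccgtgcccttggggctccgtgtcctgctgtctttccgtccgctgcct
SDHA: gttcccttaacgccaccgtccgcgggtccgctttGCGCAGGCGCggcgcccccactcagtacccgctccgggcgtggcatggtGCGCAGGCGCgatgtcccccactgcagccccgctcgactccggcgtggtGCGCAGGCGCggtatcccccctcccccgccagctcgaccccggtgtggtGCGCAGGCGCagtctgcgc
SDHD: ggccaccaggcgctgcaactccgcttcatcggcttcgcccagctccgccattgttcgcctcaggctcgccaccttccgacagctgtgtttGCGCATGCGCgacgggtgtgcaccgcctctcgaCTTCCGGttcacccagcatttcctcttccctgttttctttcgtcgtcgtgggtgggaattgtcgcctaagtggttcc
UQCRFS1: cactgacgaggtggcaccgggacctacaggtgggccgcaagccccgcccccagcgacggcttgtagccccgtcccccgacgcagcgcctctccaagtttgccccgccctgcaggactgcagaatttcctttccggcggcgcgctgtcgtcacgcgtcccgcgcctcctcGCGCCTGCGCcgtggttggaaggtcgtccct
The SDHA stretch holds 4 copies of the NRF1 motif, and the SDHD stretch holds 1 NRF1 and 1 ETS motif. NDUFS3, which fell, holds 2 copies of the ETS motif, and NDUFA1, with the largest rise of any member in PRP, holds 1.

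Complex I, the NADH dehydrogenase and the largest of the complexes, had both the largest rises and all of the falls. Of its 36 nuclear subunits 24 were called higher with plasma and 23 with PRP, and 4 were called lower in each. The summed level of the complex was 6186, 5810, 5873 and 5964 TPM in control. It lay between 6770 and 6951 TPM for plasma and between 6942 and 7129 TPM for PRP, with no overlap between control and either treatment. Median levels were 121 TPM per subunit in control, from 5.02 TPM for NDUFV3 to 477 TPM for NDUFA13.

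The largest rises in complex I were in small accessory subunits of its membrane arm. NDUFA1 was at 159, 165, 153 and 145 TPM in control replicates 1 to 4, at 265, 251, 260 and 274 TPM with plasma and at 284, 270, 297 and 273 TPM with PRP. Every treated library lay far above every control library, and the changes were 0.75 ± 0.04 (SE; adjusted p = 2.52e-08) with plasma and 0.85 ± 0.04 (6.51e-09) with PRP. NDUFA1 is encoded at chrX:119871832-119876662, and its promoter is the first of those printed. NDUFC2 was at 74.5, 73.5, 72.5 and 72.2 TPM in control, at 121, 131, 117 and 133 TPM with plasma and at 141, 128, 121 and 132 TPM with PRP. The groups again did not overlap, with changes of 0.77 ± 0.05 (adjusted p = 5.90e-08) and 0.82 ± 0.05 (2.47e-08). The effective length that Salmon estimated for NDUFC2 shifted by more than 0.1 on the log2 scale between groups, and the readthrough row NDUFC2-KCTD14, which shares sequence with it, is listed separately at 6.45 ± 3.66 (control), 9.20 ± 2.71 (plasma) and 9.42 ± 1.59 TPM (PRP).

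The 7 core subunits, which carry the flavin and iron-sulfur clusters and make up the catalytic machinery of the complex, did not move as a group. NDUFS7 and NDUFV2, both iron-sulfur proteins, and NDUFV1, which binds NADH, were called higher in both comparisons. NDUFS1 and NDUFS3 were called lower, and NDUFS8 was called in neither. Over the 29 accessory subunits 21 were called higher with plasma and 20 with PRP, and 2 were called lower in each. Among the accessory subunits the 11 of the NDUFB series, most of them in the membrane arm, had 8 called higher in each comparison and none lower, except that NDUFB6 was called lower in both without control replicate 2.

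NDUFS7 had the largest rise of the core subunits. Its level was 66.2, 61.9, 61.9 and 64.9 TPM in control, 100.2, 96.8, 99.5 and 89.2 TPM with plasma and 106, 98.0, 101.5 and 103 TPM with PRP. All treated libraries exceeded all control libraries, with changes of 0.59 ± 0.04 (adjusted p = 1.72e-07) and 0.67 ± 0.04 (4.03e-08). NDUFV1 rose far less, by 0.12 ± 0.03 (adjusted p = 0.00861) with plasma and 0.14 ± 0.03 (0.00428) with PRP.

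The 4 members called lower in both comparisons all belong to complex I. NDUFS1, its largest subunit and a carrier of iron-sulfur clusters, was at 96.7, 97.0, 97.4 and 96.2 TPM in control, at 91.4, 89.0, 87.6 and 80.3 TPM with plasma and at 88.5, 83.7, 85.4 and 80.7 TPM with PRP. The control libraries lay within a narrow band above all treated libraries, and NDUFS1 fell by 0.15 on the log2 scale (SE 0.04; adjusted p = 0.00858) with plasma and by 0.19 (SE 0.04; adjusted p = 0.00162) with PRP. NDUFS3, a core subunit of the peripheral arm, was at 183, 160.0, 171 and 166 TPM in control, at 137, 147, 156 and 155 TPM with plasma and at 148, 138, 150.4 and 146 TPM with PRP. No treated library of NDUFS3 reached the lowest control library, and it fell by 0.19 (SE 0.05; adjusted p = 0.00617) and by 0.22 (SE 0.05; adjusted p = 0.00213).

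NDUFA6, an accessory subunit of the LYR protein family, was at 95.9, 85.9, 81.4 and 83.5 TPM in control, at 76.2, 82.3, 72.5 and 67.3 TPM with plasma and at 68.0, 75.2, 71.5 and 68.8 TPM with PRP. Plasma replicate 2 lay within the control range, while all PRP libraries lay below it. NDUFA6 fell by 0.22 (SE 0.06; adjusted p = 0.0116) with plasma and by 0.29 (SE 0.06; adjusted p = 0.00173) with PRP. NDUFV3, the member with the lowest level among those tested, was at 4.71, 5.03, 5.12 and 5.21 TPM in control, at 4.35, 4.47, 4.0 and 4.34 TPM with plasma and at 4.55, 4.24, 4.32 and 4.09 TPM with PRP. It fell by 0.19 (SE 0.07; adjusted p = 0.0353) and by 0.18 (SE 0.07; adjusted p = 0.0353), and no treated library reached the control range.

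Part of these calls depended on scaling. When each library was centred on the median of the genes tested, NDUFA6 and NDUFS1 were still called lower in both comparisons, NDUFS3 and NDUFV3 were not, and the count of members called higher was 62 for plasma and 65 for PRP. That centring moved the share of lower calls among all called genes from 58.8% to 45.9% (plasma) and from 59.2% to 46.0% (PRP). Among called members the share went from 6.35% to 3.12% and from 6.67% to 2.99%. NDUFS1 is also one of the 8 members whose effective length shifted by more than 0.1, by -0.156 with PRP. On estimated reads, tested with limma's voom and scaled by the median of ratios, it was called lower in both comparisons. With PRP that fall was 0.28 (adjusted p = 9.51e-06).

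Complex II (succinate dehydrogenase), which also works in the tricarboxylic acid cycle, had the smallest ratio of summed TPM to control of the 5 complexes in both comparisons. By share of estimated reads this did not hold with plasma, where the ratio was 1.111 for complex II and 1.106 for complex I. Its summed level was 625, 582, 585 and 616 TPM in control, 667, 653, 647 and 634 TPM with plasma and 635, 629, 624 and 633 TPM with PRP, so that the PRP range touched the upper end of control. The sums were 1.08 (plasma) and 1.047 (PRP) times those of control. Of the 4 subunits 3 were called higher with plasma and 2 with PRP.

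The membrane anchors and the catalytic subunits of complex II were split. SDHD, an anchor that helps to bind ubiquinone, was at 112, 103, 103 and 111 TPM in control, at 133, 120.5, 128 and 126 TPM with plasma and at 117, 122, 123 and 124 TPM with PRP. Its treated libraries all lay above control, and it rose by 0.24 ± 0.04 (adjusted p = 0.000264) with plasma and 0.18 ± 0.04 (0.00231) with PRP. SDHC, the other anchor, rose with plasma by 0.14 ± 0.04 (adjusted p = 0.00955) and had a value of 0.08 ± 0.04 (0.118) with PRP. SDHA, the flavoprotein that oxidizes succinate, was at 123, 121, 123 and 131 TPM in control, 140, 139, 134 and 134 TPM with plasma and 144, 143, 129.7 and 132 TPM with PRP. It rose by 0.13 ± 0.04 (adjusted p = 0.0155) with plasma without overlap, and by 0.14 ± 0.04 (0.0127) with PRP, where 1 library fell within the control range.

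SDHB, the iron-sulfur subunit and the partner of SDHA in the catalytic part, was called in neither comparison. It was at 210, 197, 197 and 200 TPM in control, at 208, 203, 196 and 192 TPM with plasma and at 195, 194, 185 and 198 TPM with PRP. The groups overlapped, and the values were -0.01 ± 0.04 (adjusted p = 0.842) and -0.06 ± 0.04 (0.18), both of which turned positive under median centring.

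Complex III, the cytochrome bc1 complex, rose nearly throughout. Of 9 nuclear subunits 8 were called higher with plasma and 7 with PRP, and none lower. The summed level was 1860, 1753, 1782 and 1796 TPM in control, 2058 to 2155 TPM with plasma and 2105 to 2151 TPM with PRP, or 1.17 and 1.19 times control. The largest change was in CYC1, cytochrome c1, which hands electrons to cytochrome c. CYC1 was at 185, 178, 181 and 186 TPM in control, at 252, 259, 259 and 245 TPM with plasma and at 270, 270, 255 and 256 TPM with PRP. The treated and control libraries were widely separated, with changes of 0.47 ± 0.03 (adjusted p = 8.87e-08) and 0.52 ± 0.03 (2.90e-08).

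UQCRFS1, the Rieske iron-sulfur protein and the other redox subunit encoded in the nucleus, was at 74.8, 72.3, 74.0 and 69.2 TPM in control, at 86.7, 85.6, 89.9 and 84.3 TPM with plasma and at 89.6, 86.9, 85.0 and 87.6 TPM with PRP. It rose without overlap by 0.25 ± 0.04 (adjusted p = 6.64e-05) and 0.26 ± 0.04 (3.82e-05), and its promoter is among those printed. The small subunits UQCRQ and UQCR10 rose as well. UQCRQ changed by 0.34 ± 0.05 (adjusted p = 6.82e-05) and 0.39 ± 0.05 (1.63e-05), and UQCR10 by 0.34 ± 0.05 (4.97e-05) and 0.40 ± 0.05 (9.53e-06). UQCRC1, a large core protein that faces the matrix, was called in neither, with 0.08 ± 0.04 (adjusted p = 0.0959) and 0.07 ± 0.04 (0.158). UQCR11 was called higher with plasma, by 0.11 ± 0.04 (adjusted p = 0.0217), and had 0.06 ± 0.04 (0.209) with PRP.

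Complex IV, cytochrome c oxidase, had 11 of 12 members called higher with plasma and 10 with PRP, and none lower. At an adjusted p under 0.01 the plasma count was 7. The summed level was 4943, 4580, 4588 and 4589 TPM in control, with replicate 1 well above the other control libraries, and 5312 to 5398 TPM with plasma and 5268 to 5543 TPM with PRP. The ratios to control were 1.15 and 1.16. Complex IV had the highest median level per subunit of the 5 complexes in control, 410.4 TPM, and COX6A1 at 841 ± 64.5 TPM (SD, n = 4) was the most abundant member.

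COX6C, a single-pass membrane subunit, was at 411, 399, 392.7 and 417 TPM in control, at 504, 530.2, 512 and 548 TPM with plasma and at 545, 497, 543 and 538 TPM with PRP. The groups did not overlap with control, and it rose by 0.37 ± 0.04 (adjusted p = 3.54e-06) and 0.39 ± 0.04 (1.74e-06). COX7A2, the broadly expressed form of subunit VIIa, was at 438, 391.95, 421 and 414 TPM in control, at 491, 514, 529 and 534 TPM with plasma and at 537, 531, 604 and 579 TPM with PRP. It rose by 0.31 ± 0.05 (adjusted p = 9.38e-05) and 0.43 ± 0.05 (4.04e-06), again without overlap. COX7B rose by 0.34 ± 0.05 (adjusted p = 1.15e-04) and 0.36 ± 0.05 (5.93e-05). COX7A2L, a relative of COX7A2 known for joining complexes III and IV into supercomplexes, rose by 0.12 ± 0.04 (adjusted p = 0.0118) and 0.16 ± 0.04 (0.00163).

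The subunits that pack around the catalytic core of complex IV were uneven. COX4I1 was at 601, 576, 567 and 566 TPM in control, at 685, 688, 709 and 678 TPM with plasma and at 663, 689.6, 672 and 716 TPM with PRP, and rose by 0.26 ± 0.03 (adjusted p = 2.08e-05) and 0.25 ± 0.03 (2.43e-05). COX5B, which binds zinc, rose by 0.30 ± 0.04 (adjusted p = 2.10e-05) and 0.33 ± 0.04 (7.61e-06). COX5A, a neighbour of COX4I1 on the matrix side, changed by 0.08 ± 0.03 (adjusted p = 0.0325) with plasma and had 0.06 ± 0.03 (0.0978) with PRP. COX6A1 was at 937, 819.5, 798 and 809 TPM in control, where replicate 1 lay above every treated library but none of the others did. Its plasma libraries lay between 879 and 909.6 TPM and its PRP libraries between 879 and 924 TPM, and the values of 0.09 ± 0.04 (adjusted p = 0.107) and 0.10 ± 0.04 (0.0652) were not called. NDUFA4 rose by 0.11 ± 0.03 (adjusted p = 0.00617) and 0.16 ± 0.03 (3.69e-04).

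**Figure D2:**
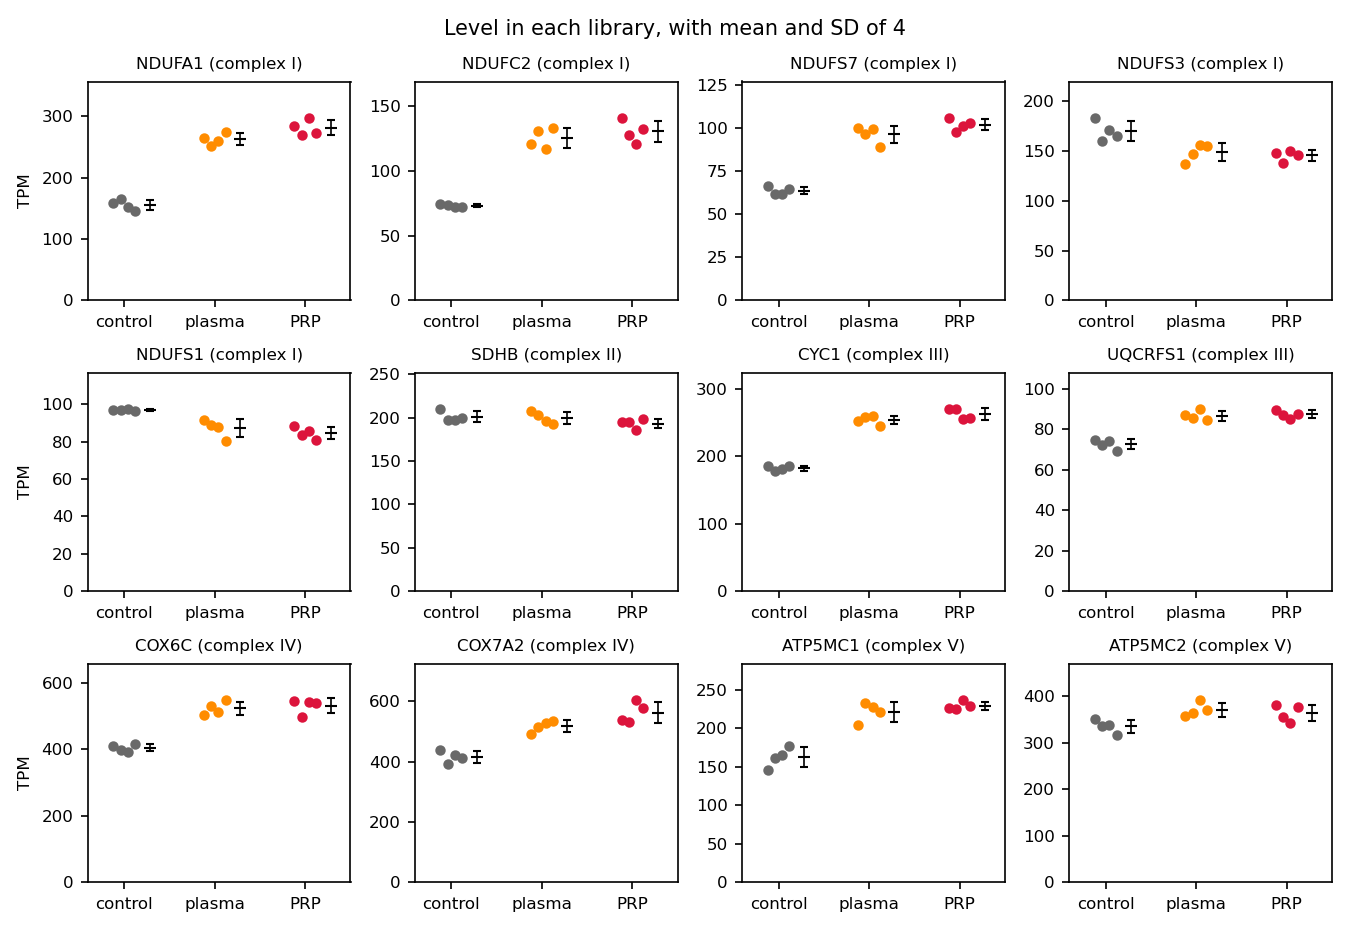
TPM of 12 members in each of the 12 libraries (points, replicates 1 to 4 from left to right), with the mean and SD of each group of 4 in black, on axes that start at 0. NDUFA1, NDUFC2, NDUFS7 and CYC1 separate treated from control libraries most clearly, SDHB overlaps, and NDUFS1 and NDUFS3 lie lower in treated cells.

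Complex V had 13 of 17 tested members called higher with plasma and 14 with PRP, and none lower. ATP5PF, of the peripheral stalk, was called lower in both comparisons at 1 effective length per gene, and with PRP when estimated reads were scaled by their total. The summed level was 4715, 4539, 4780 and 4744 TPM in control, 5214 to 5360 TPM with plasma and 5338 to 5454 TPM with PRP, or 1.13 and 1.15 times control. The parts of the enzyme differed in their counts. All 5 subunits of the F1 head and central stalk, where ATP is made, and all 3 genes of the c ring, the rotor in the membrane, were called higher in both comparisons. Of the 4 subunits of the peripheral stalk, which holds the head still, only ATP5PB was called on TPM, with 0.15 ± 0.04 (adjusted p = 0.0109) and 0.14 ± 0.04 (0.0155). That share of 25% is near the 20.3% (plasma) and 21.7% (PRP) of all genes tested that were called higher. ATP5PD, of the same stalk, was called higher in both comparisons when estimated reads were scaled by the median of ratios. Of the 5 small membrane subunits tested 4 were called higher with plasma and 5 with PRP.

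The largest rises in complex V were in the small membrane subunits ATP5MF (subunit f) and ATP5ME (subunit e). ATP5MF was at 296, 289, 317 and 306 TPM in control, at 420.0, 446, 404 and 459 TPM with plasma and at 456, 456, 463 and 493 TPM with PRP. The treated libraries were well clear of control, with changes of 0.52 ± 0.04 (adjusted p = 6.43e-07) and 0.63 ± 0.04 (8.40e-08). The readthrough row ATP5MF-PTCD1 was listed separately at 5.50 ± 0.399 (control), 5.84 ± 1.11 (plasma) and 5.94 ± 1.14 TPM (PRP). ATP5ME was at 112, 93.1, 100.1 and 101 TPM in control, at 144, 157, 137 and 143 TPM with plasma and at 152, 155, 195 and 146 TPM with PRP, where replicate 3 stood above the rest. It rose by 0.51 ± 0.08 (adjusted p = 1.40e-04) and 0.66 ± 0.08 (1.20e-05).

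In the F1 head, ATP5F1A and ATP5F1B encode the alpha and beta subunits that form the catalytic hexamer. ATP5F1A was at 272, 267, 264 and 272 TPM in control, at 307, 295, 304 and 283 TPM with plasma and at 294, 303, 309.7 and 283 TPM with PRP. ATP5F1B was at 589, 556, 590.4 and 603 TPM in control, at 642, 648, 634 and 626 TPM with plasma and at 648, 629, 664 and 629 TPM with PRP. The treated libraries of each lay above all control libraries, by 0.14 ± 0.04 (adjusted p = 0.00382) and 0.14 ± 0.04 (0.00326) for ATP5F1A and by 0.12 ± 0.03 (0.00502) and 0.14 ± 0.03 (0.00243) for ATP5F1B.

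The c ring is made of identical copies of 1 protein that 3 genes encode. ATP5MC1 was at 146, 161, 166 and 178 TPM in control, at 204, 233, 227 and 221 TPM with plasma and at 227, 225, 237 and 229 TPM with PRP, and rose by 0.44 ± 0.05 (adjusted p = 1.66e-05) and 0.50 ± 0.05 (4.64e-06). ATP5MC3 was at 246, 243, 257 and 249.9 TPM in control, at 286, 317, 297 and 285 TPM with plasma and at 327, 307, 314 and 295 TPM with PRP, and rose by 0.25 ± 0.04 (adjusted p = 1.86e-04) and 0.32 ± 0.04 (2.04e-05). ATP5MC2 was at 351, 337, 338 and 317 TPM in control, at 357, 364, 391.8 and 369.8 TPM with plasma and at 381, 355, 343 and 376 TPM with PRP. It rose least, by 0.14 ± 0.04 (adjusted p = 0.0135) and 0.12 ± 0.04 (0.0361), and 1 PRP library fell within the control range.

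The makeup of the c ring transcripts therefore shifted toward ATP5MC1. Its share of the 3 summed levels was 21.8% ± 1.73 (SD, n = 4) in control, 24.9% ± 0.612 with plasma and 25.4% ± 0.914 with PRP, with no overlap between control (at most 23.9%) and the treated libraries (at least 24.1%). The share of ATP5MC2 was 44.9% ± 1.96, 41.7% ± 1.28 and 40.2% ± 1.45, with control and plasma ranges that overlapped by a small margin. The summed level of the 3 genes reached 747 ± 9.28 (control), 889 ± 33.0 (plasma) and 904 ± 21.2 TPM (PRP). RefSeq names 8 pseudogenes after ATP5MC1, 5 after ATP5MC2 and 0 after ATP5MC3, and how reads were split between these genes and their copies is uncertain.

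**Figure D3:**
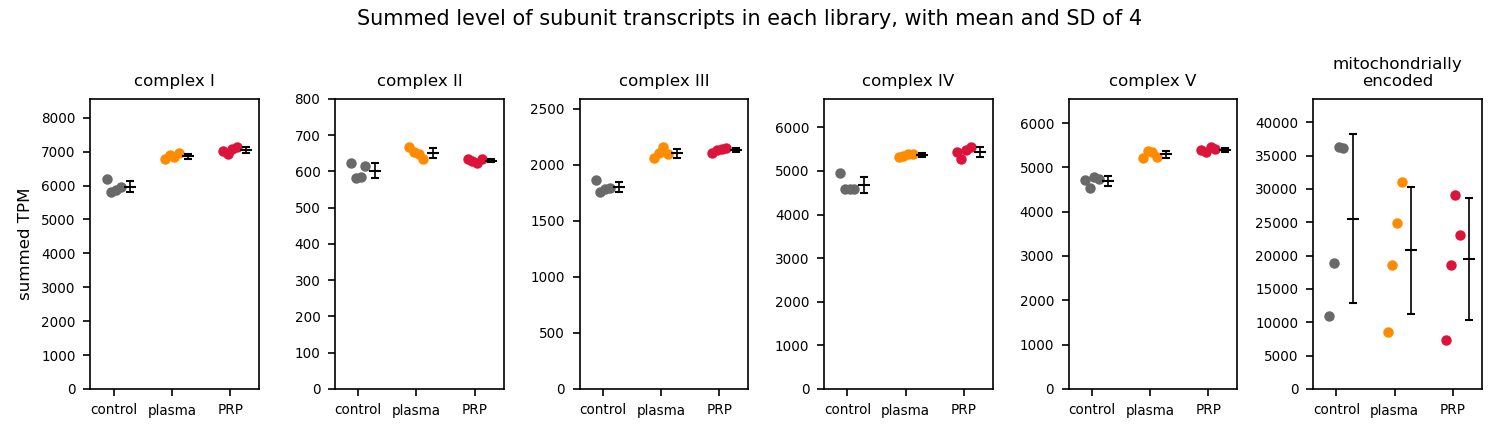
Summed TPM of the nuclear subunits of each complex, and of the 13 mitochondrially encoded subunits, in each library (points, replicates 1 to 4 from left to right), with the mean and SD of each group of 4 in black, on axes that start at 0. The sums of complexes I, III, IV and V lie above control in every treated library, complex II is closest to control, and the mitochondrially encoded sum overlaps between all 3 groups.

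No member was called between plasma and PRP. In this direct comparison limma called 0 of 78 members, where 8 genes (0.0639% of all tested) were called. At an unadjusted p under 0.05 there were 6 members, against 7.98% of all genes tested, and for no member did the 4 PRP libraries lie wholly above or below the 4 plasma libraries (2.63% of all genes lay above and 2.59% below). The differences ran from -0.07 to 0.15 with a median of 0.02, and 56 of the 78 were above 0, against 48.0% of all genes. The 95% confidence interval of the difference lay within 0.25 either side of 0 for 75 of the 78 members.

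The 3 members with the smallest unadjusted p in that comparison were NDUFS6, COX7A2 and ATP5MF, all of them higher with PRP. NDUFS6, a zinc-binding accessory subunit of complex I, was at 224, 236, 217 and 216 TPM with plasma and at 253, 251, 253 and 226 TPM with PRP. PRP replicate 4 lay within the plasma range, and the difference was 0.14 ± 0.05 (unadjusted p = 0.0165, adjusted p = 0.482), with an interval from 0.03 to 0.24. COX7A2 differed by 0.12 ± 0.05 (adjusted p = 0.506) and ATP5MF by 0.11 ± 0.04 (adjusted p = 0.518), with the levels given above and overlapping libraries in each.

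The partners encoded in the mitochondrial genome varied widely from library to library. None of the 13 mitochondrially encoded subunits was called in either comparison with control, and 0 had an unadjusted p under 0.05. All 13 had values below 0 in both, with medians of -0.23 (plasma) and -0.37 (PRP). Their summed level was 10897, 18902, 36257 and 36168 TPM in control, 8570, 18579, 24952 and 31005 TPM with plasma and 7359, 18581, 29059 and 23107 TPM with PRP. The ranges of the groups overlapped. The libraries numbered 1 were the lowest of each group, and those with the next number came next. At every replicate number the plasma and the PRP library lay below the control library of that number. The fit compared groups without regard to number, so variation shared by number stayed in its error. Its lack of calls therefore does not show that these subunits were unchanged, and a difference within numbers was not tested. Whether the nuclear and mitochondrial sets differ in their change was not tested.

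Proteins that build the complexes behaved less uniformly than the subunits. Of 61 assembly factors 19 were called higher and 9 lower with plasma, and 24 higher and 11 lower with PRP, with medians of -0.02 and 0.03. The shares called higher were 31.1% and 39.3%, against 20.3% and 21.7% of all genes tested. Those called lower were 14.8% and 18.0%, against 29% and 31.5%. Some of the higher factors had large changes for this set. TACO1, which activates translation of the mitochondrial COX1 message, went from 23.4 ± 1.47 TPM (SD, n = 4) to 40.4 ± 1.31 (plasma) and 42.7 ± 2.09 (PRP) TPM (0.76 and 0.84; adjusted p = 8.99e-08 and 2.97e-08). ATPAF1, a chaperone of the F1 beta subunit, went from 25.5 ± 0.622 to 45.04 ± 4.22 and 48.9 ± 2.86 TPM (0.79 and 0.91; 2.61e-07 and 5.88e-08). BCS1L, which inserts the Rieske protein into complex III, went from 10.7 ± 1.32 to 17.3 ± 2.09 and 20.9 ± 2.07 TPM (0.65 and 0.91; 1.15e-04 and 4.61e-06). In the other direction TMEM70, needed for the assembly of ATP synthase, went from 61.6 ± 2.99 to 52.6 ± 5.86 and 52.7 ± 3.13 TPM (-0.23 and -0.22; adjusted p = 0.0147 and 0.0154). Larger falls occurred among the assembly factors, whose lowest changes were -0.495 (plasma) and -0.577 (PRP). COX19 had means of 22.3 (control), 15.7 (plasma) and 14.7 TPM (PRP), and COA6 of 94.02, 75.4 and 70.9 TPM. For each of these genes every treated library lay below every control library.

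The known regulators of these genes were mixed. Of 17 tested, 3 (17.6%) were called higher and 4 (23.5%) lower with plasma, against 20.3% and 29% of all genes tested. With PRP 5 (29.4%) were higher and 6 (35.3%) lower, against 21.7% and 31.5%. These shares are near those of all genes. GABPB1, the partner that GABPA needs to activate transcription, was at 12.9, 12.5, 11.02 and 10.8 TPM in control, at 16.4, 16.4, 16.0 and 18.4 TPM with plasma and at 18.6, 18.0, 18.9 and 18.7 TPM with PRP, a rise without overlap of 0.48 ± 0.07 (adjusted p = 4.78e-05) and 0.61 ± 0.07 (3.86e-06). GABPA itself was uncalled, with 0.02 ± 0.05 (adjusted p = 0.772) and 0.06 ± 0.05 (0.357), as were NRF1, with -0.02 ± 0.08 (0.868) and 0.00 ± 0.08 (0.968), and YY1, with 0.04 ± 0.04 (0.396) and 0.03 ± 0.04 (0.541). TFAM, which packages and transcribes mitochondrial DNA, rose by 0.17 ± 0.05 (adjusted p = 0.00759) and 0.20 ± 0.05 (0.00256). ESRRA, a nuclear receptor that acts with PGC-1 coactivators, fell by 0.19 (SE 0.06; adjusted p = 0.0141) and by 0.23 (SE 0.06; adjusted p = 0.00328). The coactivator PPARGC1A had at most 4 estimated reads in any library, and PPARGC1B was near the filter at 0.983 ± 0.119 (control), 1.46 ± 0.377 (plasma) and 1.61 ± 0.416 TPM (PRP), with adjusted p = 0.0801 and 0.0288.

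Genes close to the subunits in function but outside the rule for members included both rises and falls. NDUFAB1, the acyl carrier protein that is also part of complex I, went from 152 ± 11.3 to 198 ± 5.36 and 207 ± 9.46 TPM (0.38 and 0.44; adjusted p = 2.76e-05 and 6.19e-06). ATP5IF1, the inhibitor of ATP synthase, went from 226 ± 11.5 to 272 ± 10.4 and 289.5 ± 5.21 TPM (0.27 and 0.36; 8.74e-05 and 5.61e-06). CYCS, cytochrome c, was at 188 ± 6.72, 186 ± 6.10 and 206 ± 14.1 TPM and was called with PRP only (0.13; adjusted p = 0.0292). NDUFA4L2, a relative of NDUFA4, was low but rose, from 1.45 ± 0.119 to 2.36 ± 0.124 and 3.28 ± 0.916 TPM (0.46 and 0.78; adjusted p = 0.00894 and 1.64e-04). The muscle, lung and testis forms COX6A2, COX7A1, COX4I2 and COX7B2 had 0 reads in all 12 libraries. Not all such forms were absent: COX6B2 had between 78.3 and 157 estimated reads, with means of 2.72 (control), 3.35 (plasma) and 2.73 TPM (PRP). COX8C had at most 3.02 reads. The member ATP5MGL, a copy of the gene for subunit g that failed the filter, had at most 0.200 TPM.

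**Figure D4:**
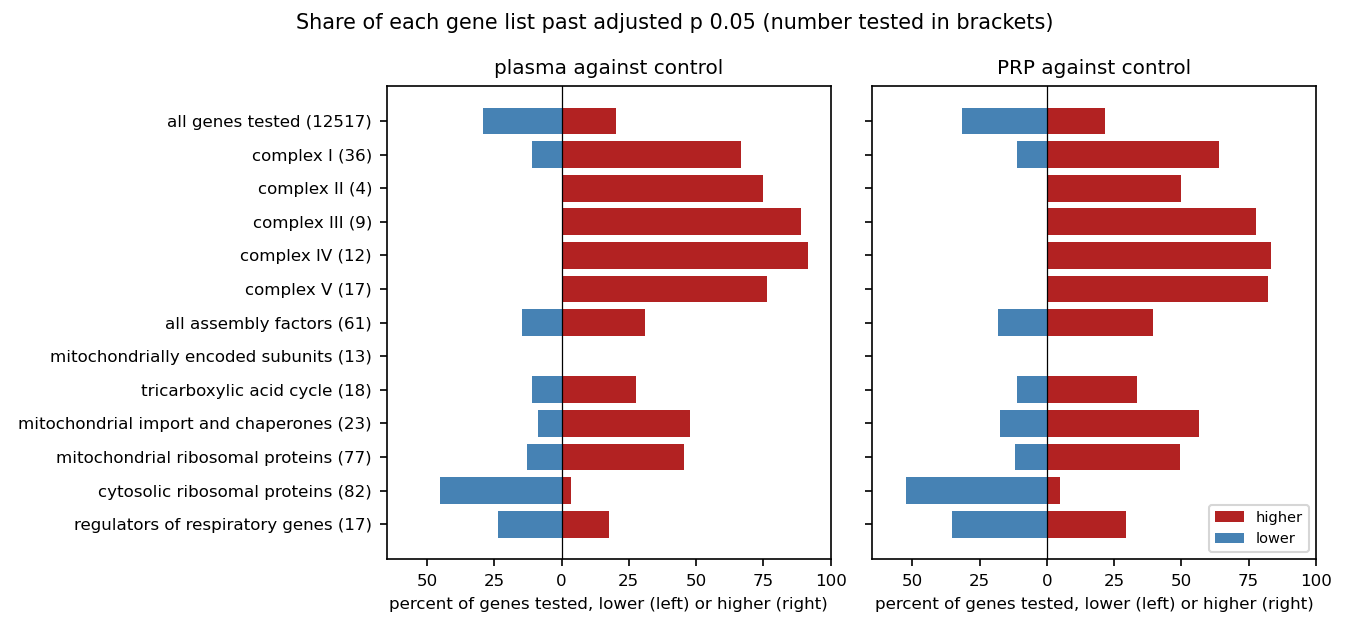
Percent of each gene list called higher (red, right) or lower (blue, left) against control by limma at an adjusted p under 0.05, with plasma (left) and PRP (right) and the number of genes tested in brackets. Complexes I to V have larger shares called higher than all genes tested, and none of the mitochondrially encoded subunits is called.

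Short transcripts were called higher more often than long ones across all genes, and most members are short. With plasma, 35.6% of all genes with an effective length under 200 bases were called higher, against 15.5% of those over 2000. The members called higher, in order of 6 length classes from the shortest, were 4 of 5, 12 of 14, 15 of 19, 10 of 18, 15 of 17 and 3 of 5, and the shares of all genes in the same classes were 35.6%, 32.8%, 37.3%, 29.4%, 24.99% and 15.5%. The median change of the members was 0.51 in the shortest class and 0.13 between 900 and 2000 bases. With PRP the members called higher were 5 of 5, 12 of 14, 14 of 19, 10 of 18, 12 of 17 and 3 of 5, where the shares of all genes ran from 39.0% to 16.8%. The part that length plays in these changes was not tested beyond this division, whose classes were set after it was seen that short members changed most.

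**Figure D5:**
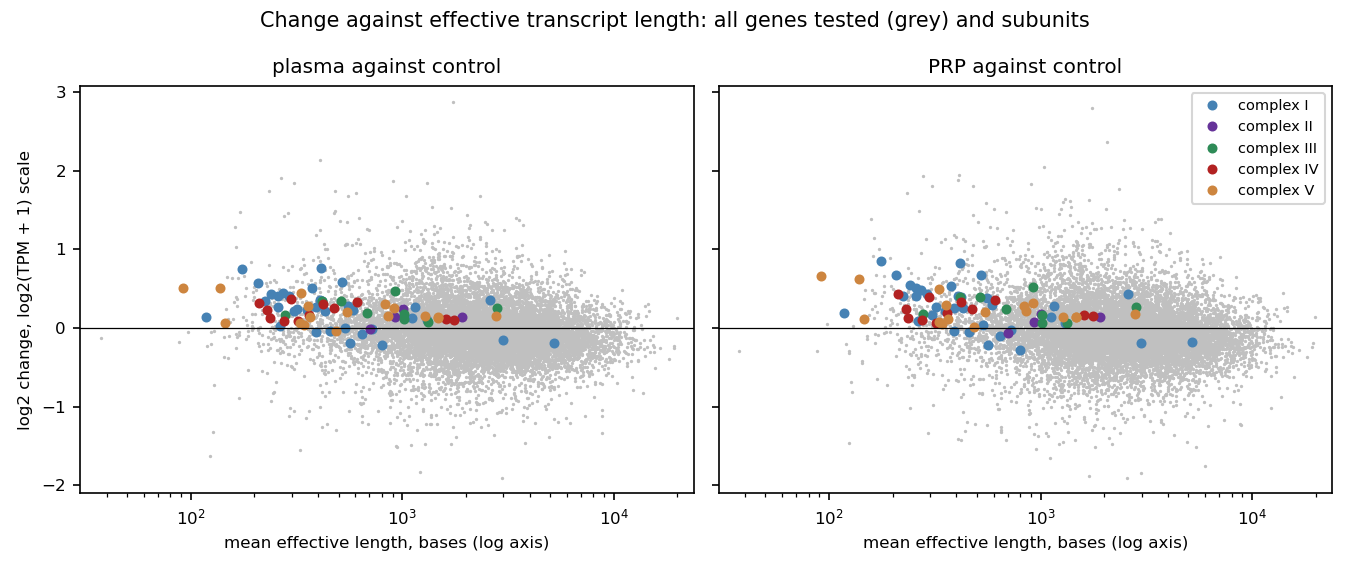
Log2 change against control, on the log2(TPM + 1) scale, against mean effective length in bases (log axis) for all 12517 genes tested (grey) and members (coloured by complex), with plasma on the left and PRP on the right. The members with the largest rises lie at short lengths, and members lie mostly above 0 at all lengths.

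The estimated reads behind the TPM kept most of the calls and added some. When reads were tested with limma's voom and scaled by the median of ratios, 57 of the 59 members called higher with plasma were called higher again, NDUFA9 and UQCRB being the exceptions, and 55 of 56 with PRP, with UQCRB the exception. NDUFS3 was not called lower with plasma on reads. Called higher on reads but not on TPM were ATP5PD, COX6A1, NDUFA7 and UQCRC1 with plasma. With PRP such members included ATP5PD, COX5A, COX6A1, NDUFA13, SDHC, UQCR11 and UQCRC1. The effective length of 8 members (ATP5PF, NDUFA3, NDUFA9, NDUFC1, NDUFC2, NDUFS1, UQCRB and UQCRC2) shifted by more than 0.1 on the log2 scale, against 13.5% (plasma) and 14.3% (PRP) of all genes tested. RefSeq names 200 pseudogenes after 48 of the members, and reads that match a gene and its copies equally cannot be assigned with certainty.

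The libraries held between 36258955 and 41976136 estimated reads. The summed level of 8 squamous epithelial markers lay between 11441 and 12889 TPM for control, 14082 and 15382 for plasma, and 14112 and 15665 for PRP, with all 8 markers detected and no overlap of either treatment with control. The markers did not move together: mean levels were 4784, 7645 and 7677 TPM (control, plasma, PRP) for KRT5 and 2465, 3204 and 3273 TPM for KRT14, against 2696, 1793 and 1647 TPM for KRT17, 877, 717 and 812 TPM for SFN and 33.8, 27.2 and 27.2 TPM for DSG3. Platelet markers were near 0 in every library, including PRP: PF4 and GP9 had 0 reads in all, and the 6 markers summed to at most 0.718 TPM. Of the 4 red cell markers HBB and ALAS2 had 0 reads in all, while HBA1 had at most 24 estimated reads and HBA2 at most 11. The 4 summed to between 1.38 and 2.68 TPM for control, 1.17 and 1.92 for plasma, and 1.05 and 2.83 for PRP. The 6 leukocyte markers, of which MS4A1 had 0 reads in all, summed to between 41.1 and 52.3 TPM for control, 73.2 and 89.6 for plasma, and 72.3 and 84.6 for PRP. Most of that sum was CD68, with means of 42.6, 74.1 and 69.7 TPM, while PTPRC (CD45), the general leukocyte marker, was at 0.621, 0.0935 and 0.0491 TPM. CD14, of the same list, had means of 1.79, 4.89 and 5.49 TPM. The 6 fibroblast markers summed to 16.3 to 21.8, 13.8 to 17.2 and 12.8 to 14.6 TPM. Among them LUM had means of 8.40, 3.87 and 3.42 TPM, and COL1A1 of 8.88, 11.1 and 9.46 TPM. The part of these marker shifts in the members' changes was not tested.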

How the data were processed

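Values were deposited by the authors as 1 file per library. The submitters' processing notes name Salmon, with no version, and the human build hg38. RNA was captured by its poly(A) tail, per the labels' protocols. Each file lists, per the file headers, the effective length, the TPM and the estimated count of reads of 20375 genes, written with decimal commas. When TPM was computed again from reads and lengths, it equalled the TPM the authors deposited within 1% plus 0.01 TPM for 20375 of 20375 genes in every library. Which transcripts were used, and whether counting was stranded, was not given in the sources used here.

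Values of log2(TPM + 1) were fitted with limma-trend (R 4.3.3, limma 3.58.1) for the 12517 genes that reached 1 TPM in 4 or more of the 12 libraries, with 1 term per group, 9 residual degrees of freedom and two-sided p-values adjusted by Benjamini-Hochberg. The log scale understates changes of low genes. The code was tested on simulated data. Decimal commas kept the columns from being registered as counts, so estimated reads were tested only with limma's voom, as an alternative.

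The members and lists were chosen with earlier results of these data known. Named members are, per complex, comparison with control and direction, up to 2 called members with the largest change, no overlap and a mean of at least 5 TPM. To these were added the 3 with the smallest p between PRP and plasma, a fixed set of catalytic and isoform genes, members called against the direction of most of their complex, and those failing the filter. From other lists at most 3 genes per comparison, those of lowest adjusted p, and a fixed set were eligible. NDUFA10, UQCR11, ATP5MK, ATP5PB, ATP5PD, NDUFS7, NDUFV2, NDUFS8, NDUFA13, NDUFA3, NDUFA7, NDUFA9, NDUFC1, ATP5PF, UQCRB, UQCRC2, NDUFB6, SLC25A4, SLC25A5, COX7B2, COX6B2, COX8C, COX19, COA6, KRT5, KRT14, KRT17, SFN, DSG3, CD68, PTPRC, CD14, HBA1, HBA2, LUM and COL1A1 were named after their values were seen. The placing of NDUFA4, the length classes, the c ring shares and the promoter background of tested genes were also chosen after seeing the data. 1 gene is counted but not reported here. Alternatives covered the pseudocount, filter, scaling, effective length, reads in place of TPM, samples in the fit, weights, threshold, a replicate block and each library left out.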

Additional observations from a re-analysis of the deposited data

Results flagged for a closer look

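In 8 of the 120 groups of 4 libraries examined, 1 library stood so far from the other 3 that its gap to the nearest exceeded Dixon's 95% critical value for 4 samples. Chance flags about 1 in 20 groups, or 6 of 120.

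Control replicate 1 was the highest of its group for COX5B (220.9 TPM), for COX6A1 (937 TPM) and for the summed level of complex IV (4943 TPM). The other control libraries lay between 4580 and 4589 TPM for that sum. COX6A1 is one of the members not called against control on TPM, though it was called higher on estimated reads. Control replicate 4 was the highest of its group for COX7B, at 114 TPM.

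Among the plasma libraries, replicate 1 was the lowest for NDUFA4 (152 TPM) and replicate 3 the highest for UQCRQ (208 TPM). Among the PRP libraries, replicate 2 was the lowest for COX6C (497 TPM) and replicate 4 the lowest for NDUFS6 (226 TPM), the member with the smallest unadjusted p between PRP and plasma.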

How the results depend on the processing

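Under 26 alternatives in each comparison, 45 of the 59 members called higher with plasma and 48 of the 56 with PRP were called higher in every one, and of the 4 called lower 1 (NDUFS1) and 2 (NDUFA6 and NDUFS1) were. Members called lower with plasma numbered 2 under median-of-ratios scaling of TPM, median centring, without the libraries numbered 1 and at an adjusted p under 0.01, and 2 with PRP under median centring. They numbered 5, with ATP5PF added, at 1 effective length per gene in both comparisons and with PRP under voom with total reads. Without control replicate 2 they numbered 4 in both, with NDUFB6 in place of NDUFV3. The median change was 0.26 (voom, median of ratios), 0.26 (scaled TPM) and 0.27 (centred) with plasma, and 0.27, 0.26 and 0.27 with PRP. Complex IV had 7 members called higher with plasma at 0.01. Complex II had 1 with PRP at 0.01 and without the libraries numbered 1. As shares of estimated reads, the summed ratios to control were 1.106 (complex I, plasma), 1.118 (complex I, PRP), 1.111 (complex II, plasma) and 1.085 (complex II, PRP). Genes called between PRP and plasma numbered 3 without a filter, 13 with voom and total reads, 19 at 1 effective length per gene, 16 in the 8 libraries compared, 1 without the libraries numbered 1, 21 with array weights, 5 at 0.01, and 4 to 14 when each library was left out. The cause was not tested.

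Changes of sign among named members all concerned values that were not called. With plasma SDHB was 0.0685 and 0.0400 (voom, scaled by median of ratios and by total reads), 0.0119 (1 effective length per gene), 0.0400 (scaled TPM) and 0.0469 (centred). With PRP SDHB was 0.0226 (voom, median of ratios) and 0.00596 (centred). Between PRP and plasma, the same 2 voom settings and 1 effective length gave -0.045, -0.0518 and -0.0506 for ATP5F1A, -0.00222, -0.00897 and -0.00798 for NDUFV1, and -0.00511, -0.0118 and -0.0106 for SDHA. Without the libraries numbered 1 that difference was 0.00189 for COX4I1, -0.0118 for COX6C, -0.0139 for NDUFV3, -0.0101 for SDHA, and -0.00135 for UQCRFS1. With each library left out in turn, the difference between PRP and plasma ran over -0.0226 to 0.0234 for ATP5F1A, -0.00414 to 0.022 for ATP5F1B, -0.0504 to 0.000124 for ATP5MC2, -0.0318 to 0.00521 for COX4I1, -0.000223 to 0.0238 for COX6A1, -0.0118 to 0.0268 for NDUFV1, -0.0241 to 0.022 for NDUFV3, -0.0214 to 0.0282 for SDHA, -0.0388 to 0.00963 for UQCRC1 and -0.00233 to 0.0284 for UQCRFS1, and the change of SDHB with plasma over -0.0279 to 0.0112.

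Deviations of libraries with the same number correlated between -0.067 and 0.304, all above 0 except control with plasma replicate 2. Those with different numbers correlated between -0.220 and 0.203, more of them below 0 than above. The former were not all above 0.1, and not every library correlated best with its own number, so the numbers were not taken as pairs. The labels do not say whether equal numbers mark a shared culture or day, and a batch by number was not tested. With a replicate block, 59 members were called higher and 4 lower with plasma, 55 and 4 with PRP, and 0 between PRP and plasma.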

Other observations

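Other mitochondrial gene groups were less one-sided than the subunits. Of all genes tested, 20.3% were called higher and 29% lower with plasma, and 21.7% higher and 31.5% lower with PRP. Of 23 genes for mitochondrial import, chaperones and related membrane proteins, 11 were called higher and 2 lower with plasma, and 13 higher and 4 lower with PRP. PHB1, a scaffold protein of the inner membrane, went from 113 ± 7.04 TPM (SD, n = 4) in control to 152 ± 3.24 with plasma and 158 ± 6.58 with PRP (log2 changes 0.42 and 0.48, limma adjusted p = 4.52e-06 and 1.10e-06). VDAC1, the main channel of the outer membrane, went from 219 ± 5.13 to 252 ± 9.94 and 269 ± 7.59 TPM. Of 77 mitochondrial ribosomal proteins 35 were called higher and 10 lower with plasma, and 38 higher and 9 lower with PRP. Cytosolic ribosomal proteins went mostly the other way, with 3 of 82 called higher and 37 lower with plasma, and 4 higher and 43 lower with PRP.

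Of 18 genes of the tricarboxylic acid cycle, 5 were called higher and 2 lower with plasma, and 6 higher and 2 lower with PRP. The shares called higher were 27.8% and 33.3%, against 20.3% and 21.7% of all genes tested. SUCLG1, a subunit of succinyl-CoA ligase, went from 87.1 ± 0.663 to 123 ± 4.59 with plasma and 124 ± 2.42 TPM with PRP (0.49 and 0.50, adjusted p = 9.44e-08 and 5.29e-08). OGDH, the E1 enzyme of the oxoglutarate dehydrogenase complex, went from 113 ± 2.94 to 88.9 ± 9.26 and 87.3 ± 5.90 TPM (-0.35 and -0.37, adjusted p = 5.81e-04 and 3.06e-04). The transcript of citrate synthase (CS) was at 219 ± 22.1, 216 ± 14.6 and 219 ± 24.2 TPM and was not called (adjusted p = 0.85 and 0.983). The adenine nucleotide carriers SLC25A6 and SLC25A4, which exchange ATP for ADP across the inner membrane, were called lower in both comparisons, with changes of -0.25 and -0.30 for SLC25A6 and of -0.30 and -0.29 for SLC25A4. SLC25A5, the most abundant of the 3 carriers, was called higher in both, at 651 ± 16.5 (control), 724 ± 16.5 (plasma) and 726 ± 6.80 TPM (PRP), with changes of 0.15 and 0.16 (adjusted p = 5.63e-04 and 3.97e-04).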
